A study of Mus musculus with 11 samples.

Results

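Glycolysis splits glucose into pyruvate in the cytosol through a chain of enzymes, and lactate dehydrogenase then turns pyruvate into lactate. Macrophages lean on this route when they are activated, and the transcription factor HIF-1 can raise many of its genes when oxygen is low. The 10 genes described here were chosen by symbol: the hexokinases Hk1 and Hk2, the isomerase Gpi1, the aldolase Aldoa, the triose phosphate isomerase Tpi1, then Gapdh, Pgk1, Eno1, the pyruvate kinase Pkm and the lactate dehydrogenase Ldha. All 10 were found among 23282 listed entries (23238 distinct symbols) in each of 11 count files, and 9 of them passed the filter on low counts. Eno1 did not pass it.

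The libraries were made from macrophages of mouse colon, sorted as CD45+CD11b+Ly6G-Ly6C-MHCII+CD64+. The labels give the same treatment for all 11 libraries: dextran sodium sulphate (DSS), an agent that damages the colon lining, at 2.5% in the water for 5 days. Whether mice of day 0 had already drunk it is not given in the sources used here. The strain was labelled WT or Csf1r-EP4-/-, here called KO, a name that places loss of the prostaglandin E2 receptor EP4 (gene Ptger4) under the macrophage gene Csf1r. The titles gave 3 libraries labelled KO at day 0 of the DSS course, 2 labelled WT at day 0, 3 labelled KO at day 39 and 3 labelled WT at day 39. Where titles say day 39 the names of the deposited files say day 35, and the file of WT day 0 replicate 2 bears the number 3. Ages, the deleted exons, the kind of Csf1r driver and any pooling of animals are not given in the sources used here. Nothing says that the libraries came from separate animals, so p-values measure only the spread between these libraries.

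Totals ran from 4003299 counts to 14207919 counts, and the deepest was KO day 0 replicate 3. The MHCII gene H2-Ab1, of the sort, and the macrophage gene Csf1r, which is not among the sort markers, never had fewer than 12803 and 1329 counts, nor the macrophage complement genes C1qa and C1qb fewer than 2605 and 2606. The genes of CD45, CD11b and CD64 (Ptprc, Itgam and Fcgr1) had 3 counts or fewer in 3, 3 and 5 libraries, and Mertk had none in any. Ptger4 had 1350, 0 and 890 counts in the libraries labelled day 0 KO and 1, 8 and 4501 in those labelled day 39 KO. It had 0 and 0 counts in day 0 WT and 1481, 152 and 7286 in day 39 WT, so it went against the label in 3 libraries labelled KO. Reads of these 3′ end libraries could still fall outside a deleted part of the gene. Every direction between genotypes below therefore refers to the labels alone.

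The glycolysis genes were detected more evenly than most genes of these libraries. Of the 10 genes, 9 reached at least 1000 counts in some library, and 22 of their 99 values (22.2%) were 10 counts or fewer. Among the 6642 other genes that reached 1000 counts in some library, 61.3% of values were that low. Of the 9, 4 (Gpi1, Aldoa, Pgk1 and Pkm) had over 10 counts in all 11 libraries, as did 5.09% of those other genes. Gapdh, which peaked at 601 counts, also did. The low values belonged to Eno1 (10 libraries), Hk1 (6), Tpi1 (4), Hk2 (1) and Ldha (1). The SD of log2(CPM + 1) over the 11 libraries was lowest for Pkm (0.77), Pgk1 (0.93) and Gapdh (0.99), and 2.08% of the other tested genes had an SD under 1. CPM means counts per 1000000 counts, with each library scaled by TMM, a method that balances libraries on their shared genes. For Hk1 the same SD was 4.46, above the median of 3.16 over the other tested genes, and the other 8 tested members stood below that median.

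**Figure D1:**
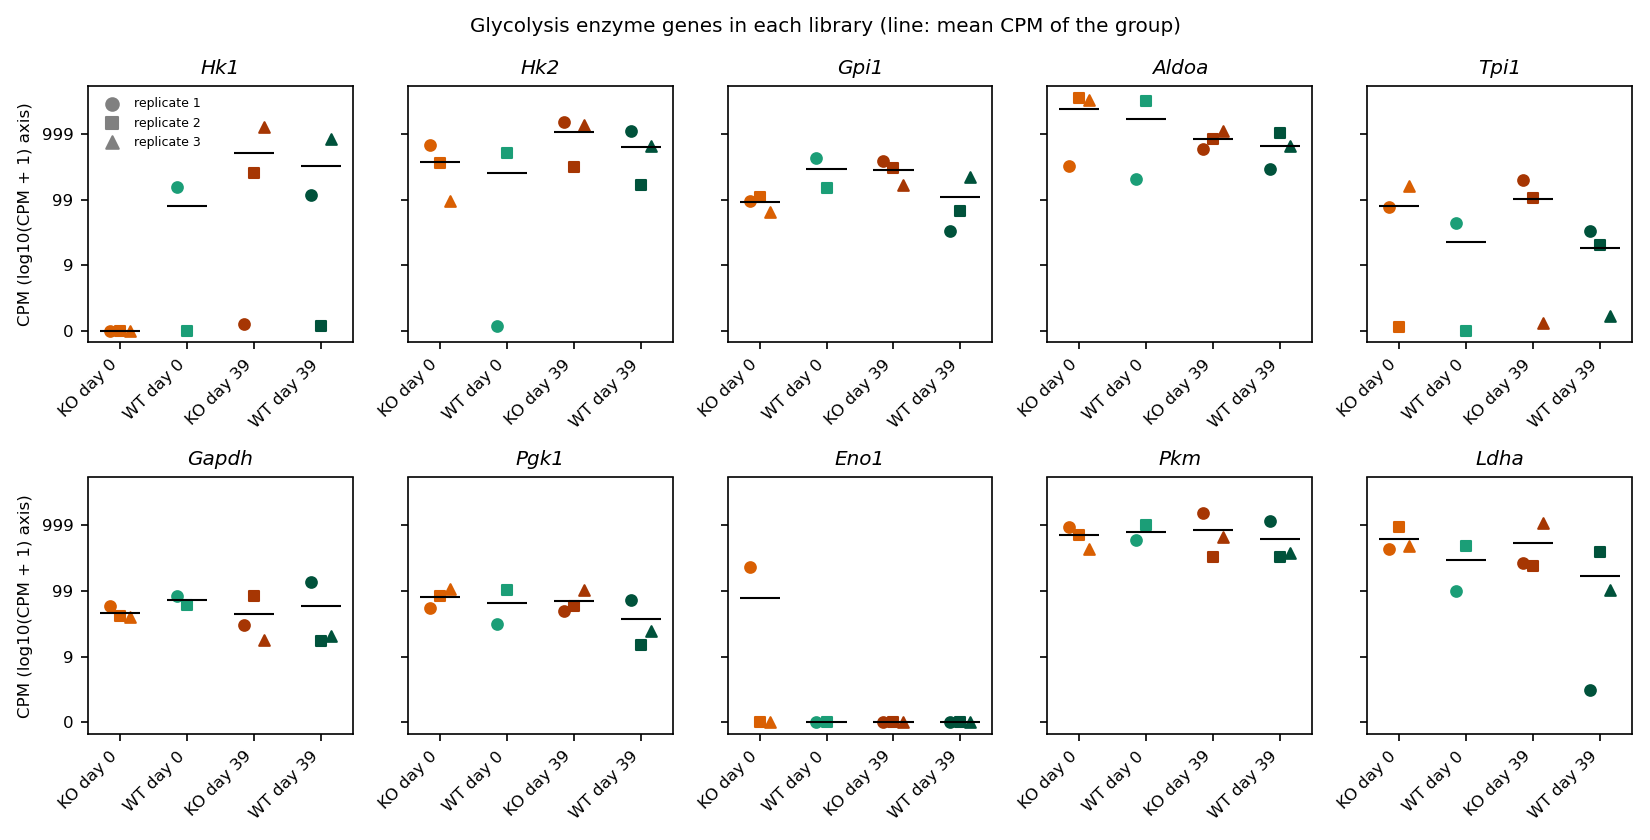
CPM of each of the 10 glycolysis genes (1 panel a gene, log10(CPM + 1) axis) in the 11 libraries, grouped by label and day; each symbol is 1 library and the line is the group mean. Pkm (325 to 1561 CPM), Pgk1 (14.2 to 106.7) and Gapdh (16.6 to 139) vary least of the 10 genes on this scale, while Hk1, Tpi1 and Eno1 drop to 0 or near 0 in some libraries of a group and not in others.

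No glycolysis gene passed the edgeR test at an adjusted p-value of 0.05 in any of 6 contrasts. The contrasts were KO against WT at each day, day 39 against day 0 in each strain, the interaction of both, and day 39 against day 0 averaged over the strains. Over all 6987 tested genes, 0.0143%, 0.0286%, 0.0143%, 0.157%, 0.0% and 0.301% were called in that order, so 0 of 9 tested members is close to the background. The members' standard errors on the log2 scale ran from 0.76 (Aldoa, averaged day contrast) to 5.65 (Gapdh, interaction). At an unadjusted p under 0.05, edgeR had 1 of 9 members (Hk1) between the strains at day 0 (7.99% of all tested genes), between days in KO (18.2%), in the interaction (14.4%) and over averaged days (19.2%). It had 0 of 9 between the strains at day 39 (7.28%) and between days in WT (6.68%). The DESeq2 test called Hk1 in the same 4 contrasts and no other member in any. It called far more genes: in the order above, 31.1%, 10.6%, 27.8%, 25.9%, 21.4% and 26.4% of the genes that it gave an adjusted p. Its 1, 0, 0, 1, 1 and 1 of 9 members were thus no larger a share than over all genes.

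The signs of the members' fold changes were mostly alike in 3 contrasts, although none passed, and in some contrasts they depended on the scaling. Of the 9 tested, 5 had a log2 fold change above 0 between the strains at day 0 and 8 at day 39, with medians of 0.31 and 0.73 beside 1.08 and 0.0 over all tested genes. Between days, 2 were above 0 in WT and 5 in KO, with medians of -0.36 and 0.28 beside 1.64 and 0.0. In the interaction 8 were above 0 (median 0.62, beside -1.69), and over averaged days 4 (median -0.04, beside 0.76). Upper-quartile scaling, in which the median of all genes at day 0 was 0.0, left 1 of 9 above 0 between the strains at day 0 (members' median -1.995) and 1 of 9 between days in WT (median -2.42, beside 0.48 over all genes). In the interaction it put 9 of 9 above 0 (median 2.47, beside -0.75). The count at day 39 between the strains was 8 of 9 under each of the 4 scalings. In that contrast the scalings hardly differed, with medians over all genes of -0.03 to 0.0, so this says little about the signs. Without overlap in CPM, 2 of 9 members (Gpi1 and Hk1) were higher in KO at day 39 than at day 0 (8.07% of tested genes were). Likewise 2 of 9 (Gpi1 and Gapdh) were lower in KO than in WT at day 0 (5.25%). None was higher without overlap in KO at day 0 (6.73% of tested genes were). None separated the strains at day 39 (3.41% higher and 3.99% lower), the days in WT (12.7% and 4.72%) or the pooled days (1.6% and 0.157%), and none was lower in KO at day 39 than at day 0 (3.21%).

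**Figure D2:**
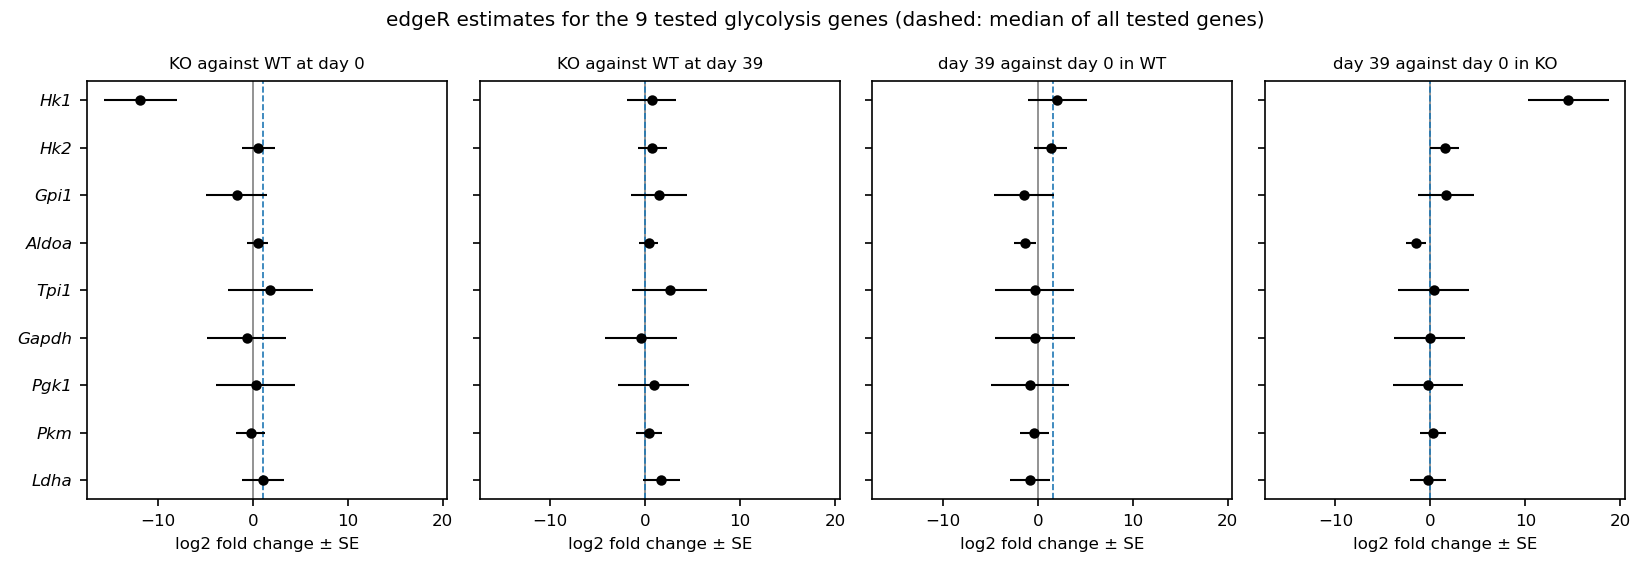
log2 fold change with its standard error from edgeR (horizontal axis) for the 9 tested glycolysis genes (vertical axis) in 4 contrasts; the dashed line is the median over all tested genes. Hk1 stands far from 0 between the strains at day 0 (-11.84) and between days in KO (14.55), both against a group in which it had 0 counts. Of the other 8 genes only Aldoa lies farther from 0 than its standard error, between days in KO (-1.52 ± 1.04) and in WT (-1.36 ± 1.12).

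Hexokinases trap glucose in the cell by phosphorylating it. Hk1 is the widely expressed form and Hk2 the form that is often induced. Hk1 had 0, 0 and 0 counts in day 0 KO and 869 and 0 counts in day 0 WT. At day 39 it had 1, 1271 and 4422 counts in KO and 377, 1 and 3861 counts in WT. Hk1 was thus above 10 counts in 1 of 5 libraries at day 0 and in 4 of 6 at day 39, and both day 39 groups held 1 library with a single count.

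In CPM, Hk1 was at 0 in day 0 KO, at 77.6 ± 109.8 (SD, n = 2) in day 0 WT, at 509 ± 675 (n = 3) in day 39 KO and at 320.1 ± 459 (n = 3) in day 39 WT. Against the floor of 3 counts per library, the day 39 KO mean was at least 1434-fold higher than day 0 KO, a difference that did not pass (edgeR fitted log2 fold change 14.55 ± 4.22 SE, adjusted p = 0.247). Without KO day 39 replicate 3 that bound was 354-fold. The bound is on the mean alone, because KO day 39 replicate 1, with 1 count, was itself under the floor. Over both strains the fitted log2 difference of day 39 from day 0 was 8.30 ± 2.68 (SE), with an edgeR adjusted p of 0.143, and it was 14.15 without WT day 0 replicate 1. DESeq2 called both (adjusted p = 3.17e-14 and 5.68e-08). Between the strains at day 0, KO was at least 219-fold lower than the WT mean (edgeR adjusted p = 0.381), which rests on WT replicate 1 alone (at least 438-fold without WT replicate 2): without it both groups were at 0. The interaction for Hk1 was 12.51 ± 4.36 (SE, edgeR adjusted p = 0.324). It was 0.46 without WT day 0 replicate 1. Markers of other cells also moved with the day: 16 epithelial markers summed to 74.7 to 1776 CPM at day 0 and to 1858 to 11903 CPM at day 39, without overlap, with 6 to 12 of the 16 at 0 in each day 0 library and 0 to 4 at day 39. In the KO libraries, 5 red blood cell markers summed to 806 to 1269 CPM at day 0 and 4800 to 4992 CPM at day 39, and 4 monocyte markers to 3.47 to 129.7 CPM and 545 to 1441 CPM, both without overlap. In the WT libraries these last 2 sums overlapped between days. The sort as labelled would remove epithelial and red blood cells, which lack CD45, and Ly6C+ monocytes. The part of any of these cells in the Hk1 counts was not tested.

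Hk2 was found in nearly every library. It had 689, 354 and 93.9 CPM in day 0 KO, 0.179 and 506 in day 0 WT, 1514, 311 and 1372 in day 39 KO, and 1103, 166 and 657 in day 39 WT. The groups overlapped in every pair compared. The lone low value came from WT day 0 replicate 1, with 1 Hk2 count, which was the sole day 0 library with Hk1. The group means of Hk2 were 379 ± 298 (SD, n = 3) in day 0 KO, 253 ± 358 (n = 2) in day 0 WT, 1066 ± 657 (n = 3) in day 39 KO and 642 ± 469 (n = 3) in day 39 WT. In WT the log2 difference of day 39 from day 0 was 1.34 ± 1.77 (SE, edgeR adjusted p = 0.736). It was 11.74 without WT day 0 replicate 2 and -1.17 under upper-quartile scaling.

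**Figure D3:**
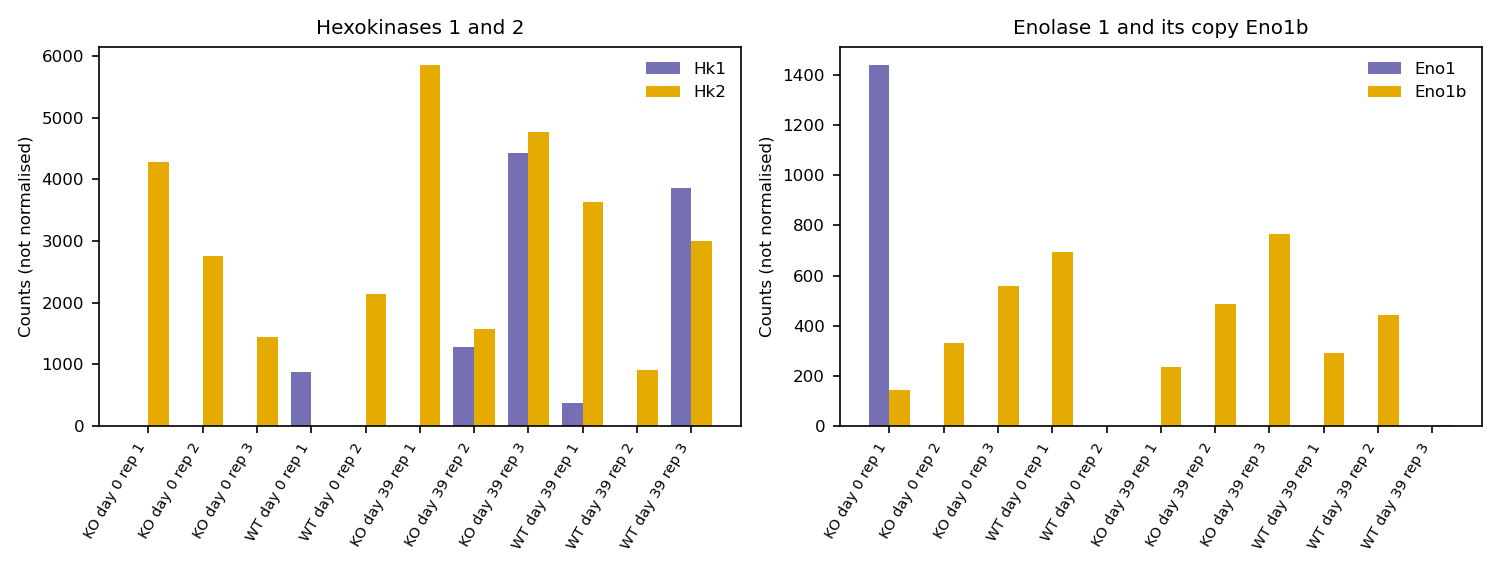
Counts per library, not normalised (vertical axis), of Hk1 and Hk2 (left) and of Eno1 and its near-identical copy Eno1b (right). Hk2 has at least 901 counts in every library but WT day 0 replicate 1, where it has 1 and Hk1 has 869 counts, and Eno1 has counts in KO day 0 replicate 1 only, while Eno1b has counts in 10 of 11 libraries.

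The start regions of the hexokinase genes are shown because Hk2 was found in 10 libraries and Hk1 in 5, 4 of them with Hk2, and because Hk1 has more than 1 annotated start, which reads at the 3′ end cannot tell apart. They are RefSeq windows on GRCm38.p6, from 250 bases before to 50 bases after a start, and the mouse build behind the counts is not given in the sources used here. Capitals mark ACGTG or GCGTG, the core letters of sites that HIF-1 can bind, read on either strand. Both hexokinase genes lie on the minus strand, and their windows read as follows.
Hk1 distal start, chr10:62379859-62380158: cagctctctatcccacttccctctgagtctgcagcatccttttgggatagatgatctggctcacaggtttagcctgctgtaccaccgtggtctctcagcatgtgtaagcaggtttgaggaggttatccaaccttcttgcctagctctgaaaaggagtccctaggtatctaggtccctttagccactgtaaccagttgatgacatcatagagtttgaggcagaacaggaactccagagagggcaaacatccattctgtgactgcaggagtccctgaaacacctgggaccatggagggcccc
Hk1 second start, chr10:62340372-62340671: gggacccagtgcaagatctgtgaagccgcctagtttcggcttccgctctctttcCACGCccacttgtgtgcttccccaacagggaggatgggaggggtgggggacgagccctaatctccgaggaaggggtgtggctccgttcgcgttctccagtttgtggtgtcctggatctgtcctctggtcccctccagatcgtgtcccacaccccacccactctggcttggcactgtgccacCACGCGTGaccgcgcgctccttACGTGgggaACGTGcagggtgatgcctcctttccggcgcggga
Hk2, chr6:82774405-82774704: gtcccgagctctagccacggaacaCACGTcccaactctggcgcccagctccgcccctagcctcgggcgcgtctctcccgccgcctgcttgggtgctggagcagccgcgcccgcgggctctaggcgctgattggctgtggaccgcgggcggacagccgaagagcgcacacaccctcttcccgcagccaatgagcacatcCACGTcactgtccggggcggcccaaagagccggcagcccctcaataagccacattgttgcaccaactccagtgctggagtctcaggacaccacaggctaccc
The second Hk1 window held 2 matches of ACGTG and 3 of GCGTG, some of them overlapping, and the distal window held 0 of either. The Hk2 window held 2 of ACGTG. Over all 10 genes, 12 of 17 windows held at least 1 match, in 8 of the genes, beside 43.8% of 32851 RefSeq windows of the same length. Of the 17, 2 Aldoa windows overlap each other, as do 2 Eno1 windows, so the same matches can count in both. A match of these letters is not a bound site.

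Gpi1 turns glucose 6-phosphate into fructose 6-phosphate. It had 94.0, 109.9 and 63.6 CPM in day 0 KO and 432 and 148 in day 0 WT. At day 39 it had 383, 303 and 166 CPM in KO and 32.5, 66.2 and 221 in WT. All 3 day 39 KO libraries stood above all 3 day 0 KO libraries, and all 3 day 0 KO libraries stood below both day 0 WT libraries, while the WT groups overlapped between days. In KO the log2 difference of day 39 from day 0 was 1.67 ± 2.98 (SE, edgeR adjusted p = 0.916) and did not pass. The log2 difference of KO from WT at day 0 was -1.70 ± 3.21 (SE, edgeR adjusted p = 0.891), and the interaction was 3.11 ± 4.36 (edgeR adjusted p = 0.828). Neither passed, and the first was -0.87 without WT day 0 replicate 1 and -3.08 under upper-quartile scaling. The interaction was 2.19 without WT day 0 replicate 1, 4.23 without WT day 39 replicate 3 and 4.38 under upper-quartile scaling. In all, 2 of 9 tested members (Gpi1 and Hk1) were higher without overlap at day 39 in KO, as were 8.07% of tested genes, and for Hk1 the lowest day 39 library had 1 count, under the floor. At day 0, 2 of 9 (Gpi1 and Gapdh) were lower in KO without overlap, as were 5.25% of tested genes. For Gapdh the nearest libraries were KO replicate 1 (57.4 CPM) and WT replicate 2 (59.4 CPM). They had 357 of 5982548 and 252 of 5126194 counts. Scaled by those totals, the 2 would change order and the Gapdh groups would overlap.

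Aldoa splits fructose 1,6-bisphosphate into triose phosphates and is the main aldolase of muscle as well as of many other cells. It had 322, 3578 and 3309 CPM in day 0 KO and 207 and 3162 in day 0 WT. At day 39 it had 592, 839 and 1089.8 CPM in KO and 289, 1031 and 652 in WT. Each day 0 group thus held libraries of 3162 CPM or more beside 1 library of 322 CPM or less, and the day 39 libraries spanned 289 to 1089.8. The log2 difference of day 39 from day 0 was -1.44 ± 0.76 (SE) averaged over the strains (edgeR adjusted p = 0.278), -1.52 ± 1.04 in KO (adjusted p = 0.395) and -1.36 ± 1.12 in WT (adjusted p = 0.509). In WT it was 1.72 without WT day 0 replicate 2, and the averaged difference was then 0.03. Under upper-quartile scaling these differences were -3.55 and -2.51.

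The 3 Aldoa-rich libraries were also those with the 3 highest sums of stromal genes. The 8 stromal and smooth muscle markers (collagens, Dcn, Lum, Acta2, Myh11 and Tagln) summed to 18508, 20796 and 15211 CPM in KO day 0 replicates 2 and 3 and WT day 0 replicate 2, and to between 3016 and 10999 CPM in the other 8 libraries. Of these markers 2, 0 and 2 were at 0 in the 3 libraries and 0 to 3 in the other 8. Collagen genes made up much of the 3 sums: Col1a1 had 9193, 6083 and 5776 CPM and Col1a2 had 5898, 6611 and 5572 CPM. The 17 skeletal muscle markers summed to 27998, 24911 and 11240 CPM in the same 3 libraries and to between 3059 and 19523 CPM in the others. WT day 39 replicate 2, with the 19523 CPM of muscle markers, had 1031 CPM of Aldoa. The muscle gene Acta1 was never below 1915 counts, whereas Tnnc2, of the same list, had 13, 2 and 10 counts in the 3 day 39 KO libraries and up to 41046 in KO day 0 replicate 3. Of the 17, 0, 0 and 2 were at 0 in the 3 Aldoa-rich libraries and 0 to 4 in the other 8. The sort as labelled, on CD45 and CD11b, would remove stromal and muscle cells. The part of these tissues in the Aldoa values was not tested. In such bulk samples a change in the share of cells of a type and a change in RNA per cell cannot be told apart.

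**Figure D4:**
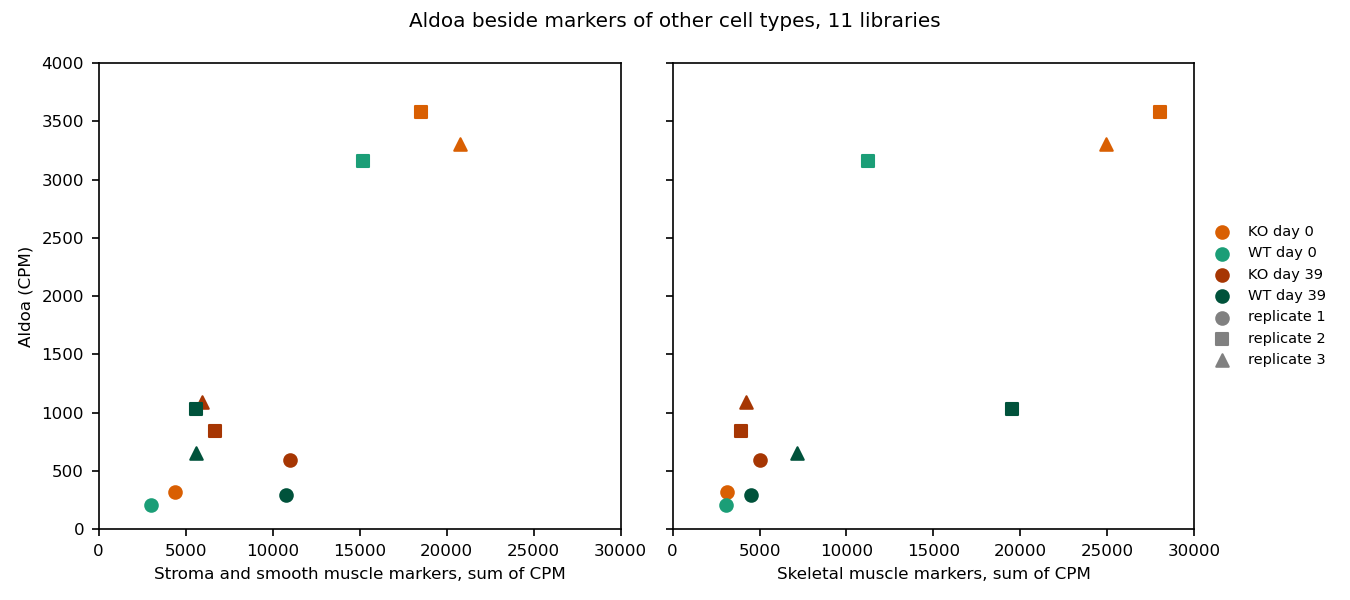
Aldoa in CPM (vertical axis) against the summed CPM of stromal and smooth muscle markers (left) and of skeletal muscle markers (right); each symbol is 1 of the 11 libraries. The 3 libraries with Aldoa at 3162 CPM or more have the 3 highest stromal sums, from 15211 to 20796 CPM, and WT day 39 replicate 2 has a high muscle sum with Aldoa at 1031 CPM.

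Aldoa has more than 1 annotated start, and counts from the 3′ end add them all up. A distal and a proximal RefSeq window (GRCm38.p6, minus strand, capitals as above) show how unlike these starts are.
Aldoa distal, chr7:126800398-126800697: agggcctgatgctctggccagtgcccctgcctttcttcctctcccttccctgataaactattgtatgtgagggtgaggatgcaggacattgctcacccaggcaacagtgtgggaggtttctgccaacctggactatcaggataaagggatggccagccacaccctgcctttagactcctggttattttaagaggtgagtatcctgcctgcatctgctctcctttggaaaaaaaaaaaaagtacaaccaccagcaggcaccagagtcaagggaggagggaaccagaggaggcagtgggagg
Aldoa proximal, chr7:126799205-126799504: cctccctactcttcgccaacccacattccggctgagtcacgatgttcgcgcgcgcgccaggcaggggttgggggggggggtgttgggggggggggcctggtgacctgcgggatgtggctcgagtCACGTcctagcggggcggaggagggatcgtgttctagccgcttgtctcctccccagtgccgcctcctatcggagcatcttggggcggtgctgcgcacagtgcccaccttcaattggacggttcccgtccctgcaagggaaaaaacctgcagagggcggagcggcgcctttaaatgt
The proximal window held 1 match of ACGTG and the distal window 0.

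Tpi1 interconverts the triose phosphates. It had 474, 1 and 2442 counts in day 0 KO, 241 and 0 in day 0 WT, 761, 536 and 1 in day 39 KO and 105, 103 and 3 in day 39 WT. Each group held 1 library with 3 counts or fewer. At day 39 the log2 difference of KO from WT was 2.56 ± 3.96 (SE, edgeR adjusted p = 0.941), with a range of 1.71 (without KO day 39 replicate 1) to 3.26 (without WT day 39 replicate 1) when 1 library was left out. Tpi1 overlaps Spsb2 in RefSeq, but Spsb2 had at most 1 count in a library.

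Gapdh oxidises glyceraldehyde 3-phosphate and is a common reference gene. It had 57.4, 40.1 and 39.3 CPM in day 0 KO, 82.2 and 59.4 in day 0 WT, 29.7, 83.6 and 17.0 in day 39 KO, and 139, 16.6 and 19.7 in day 39 WT. The range over the 11 libraries was 59 to 601 counts. The Gapdh 3′ end (last 300 bases of its transcripts) matched 91 other GENCODE genes at 95% identity or more over at least 150 bases, of which 85 were pseudogenes. Among tested genes other than the members, 1.24% matched 10 or more. The copies listed in the count files included Gm12070, with 44 to 325 counts. How shared reads were assigned is not given in the sources used here, so the Gapdh level is uncertain.

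Pgk1 makes ATP from 1,3-bisphosphoglycerate. It had 53.7, 84.0 and 106.7 CPM in day 0 KO, 30.0 and 101.6 in day 0 WT, 47.8, 57.1 and 101.1 in day 39 KO, and 72.9, 14.2 and 23.9 in day 39 WT. The groups overlapped in every pair compared. The 3′ end of Pgk1 matched no other GENCODE gene under the same rule, and the same held for Hk1 and Hk2. That of Aldoa matched 2, of which Aldoart1 is listed in the files, with 0 to 332 counts. Those of Tpi1 and Pkm matched 2 each and that of Gpi1 matched 1, none of them listed. Among tested genes other than the members, 17.4% matched at least 1.

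Eno1 turns 2-phosphoglycerate into phosphoenolpyruvate. It had 1440 counts in KO day 0 replicate 1 and 0 counts in each of the other 10 libraries, where the floor of 3 counts corresponds to 0.196 to 0.911 CPM. Its 3′ end matched 5 other GENCODE genes, of which Eno1b is listed in the files. Eno1b had 145, 329 and 559 counts in day 0 KO, 692 and 0 in day 0 WT, 235, 487 and 767 in day 39 KO, and 292, 443 and 5 in day 39 WT. Reads of Eno1b were thus found in libraries without any of Eno1, and 2 libraries had 5 counts or fewer of both. Whether the reads of Eno1 were assigned to its copies was not tested, and the Eno1 counts are uncertain.

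Pkm makes pyruvate and ATP in the last step of the chain, and its spliced forms PKM1 and PKM2 share their 3′ end, so the counts hold both. It had 954, 718 and 436 CPM in day 0 KO, 603 and 1009 in day 0 WT, 1561, 328 and 674 in day 39 KO, and 1177, 325 and 383 in day 39 WT. The means were 703 ± 259.5 (SD, n = 3), 806 ± 287 (n = 2), 854 ± 635 (n = 3) and 628 ± 476 (n = 3) in that order. They differed by less than the SD of the day 39 groups, and the highest and lowest of the 11 libraries both belonged to day 39.

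Ldha turns pyruvate into lactate. It had 439.7, 940 and 487 CPM in day 0 KO, 99.2 and 491 in day 0 WT, 267, 237 and 1108 in day 39 KO, and 2.12, 395 and 101.4 in day 39 WT. The groups overlapped in every pair compared, and the lowest value was 7 counts, in WT day 39 replicate 1. At day 39 the log2 difference of KO from WT was 1.69 ± 1.95 (SE), the smallest p of the 9 tested members in that contrast, and it did not pass (edgeR adjusted p = 0.827). It was 0.60 without KO day 39 replicate 3, 1.02 without WT day 39 replicate 1 and 3.23 without WT day 39 replicate 2. The Ldha 3′ end matched 5 other GENCODE genes, all pseudogenes. Its first window is shown because it held the most matches of the 17 when a palindromic site counts on each strand. Counted so, it held 5 matches of ACGTG and 2 of GCGTG, and 2 of its sites were the palindrome CACGTG. With each palindrome counted once, the second Hk1 window held as many matches.
Ldha first window, GRCm38.p6, plus strand, chr7:46845554-46845853: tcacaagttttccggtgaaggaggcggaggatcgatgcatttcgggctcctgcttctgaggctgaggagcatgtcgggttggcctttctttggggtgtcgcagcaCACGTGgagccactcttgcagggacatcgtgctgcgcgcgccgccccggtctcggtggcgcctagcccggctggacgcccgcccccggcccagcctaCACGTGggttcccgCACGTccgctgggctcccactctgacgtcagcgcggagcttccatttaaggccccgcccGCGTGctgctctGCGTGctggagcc
This was also the sole member with CACGTG, a sequence that factors such as Myc and USF can bind, beside 7.15% of all windows.

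Summed over the 10 genes, the level was 2917, 5823 and 4695 CPM in day 0 KO, 1652 and 5477 in day 0 WT, 4591, 2516 and 5803 in day 39 KO, and 2960.4, 2033 and 2904 in day 39 WT. The means were 4478 ± 1465 (SD, n = 3), 3564 ± 2705 (n = 2), 4303 ± 1662 (n = 3) and 2632 ± 520.2 (n = 3). The groups overlapped in every pair compared, and day 39 WT spanned the narrowest range. Which gene made up the sum differed between libraries. Aldoa gave 61.4% and 70.5% of it in KO day 0 replicates 2 and 3 and 57.7% in WT day 0 replicate 2, and 9.75% to 50.7% in the other 8. Hk2 had the most counts of the 10 in KO day 39 replicate 3, and Hk1 in WT day 39 replicate 3. These shares are of reads and are not per length.

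**Figure D5:**
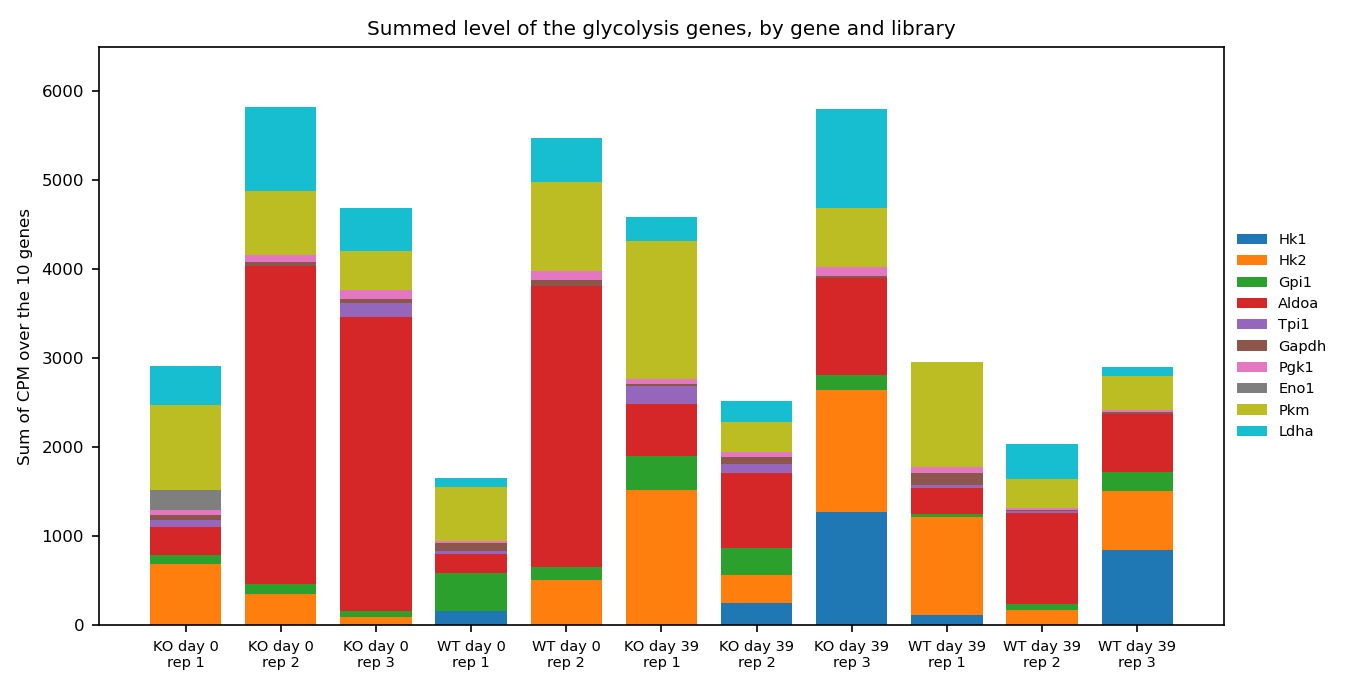
Sum of CPM over the 10 glycolysis genes (vertical axis) in each of the 11 libraries, with the part of each gene in colour. Aldoa fills most of the bar in KO day 0 replicates 2 and 3 and in WT day 0 replicate 2, and 50.7% of it in WT day 39 replicate 2, while Hk1 and Hk2 fill much of it in KO day 39 replicate 3 and WT day 39 replicate 3.

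Among 2092 other genes with a mean of at least 100 CPM, those whose pattern over the 11 libraries lay closest to this sum were Rps27a, Rps9, Rpl27a and Rps12. Closeness was the root mean square distance of log2(CPM + 1) after centring each gene on its mean. It was 0.38 for Rps27a and 0.49 for Rps12, beside a median of 3.51 over the 2092 genes and 0.61 for a gene that would not vary at all. Of the members themselves, Pgk1 lay closest to the sum (0.57) and Hk1 farthest (4.46).

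The rest of the pathway was read from a list of 33 further genes, all listed in the files, of which 18 were tested. None passed in either direction in any of the 6 contrasts by the edgeR test, which had 3, 4, 1, 4, 4 and 2 of the 18 at an unadjusted p under 0.05, in the order above. Over all tested genes the shares were 7.99%, 7.28%, 6.68%, 18.2%, 14.4% and 19.2%, so the list stood above them in some contrasts and below in others. Of the 16 isoenzymes and other steps, 11 reached 100 counts in some library and none did so in 9 or more libraries. The phosphofructokinases, which commit sugar to the chain, came and went: Pfkp had 55, 5707 and 3567 counts in day 0 KO, 1 and 0 in day 0 WT, 1, 487 and 357 in day 39 KO and 3, 1506 and 2 in day 39 WT. Pgam1, the mutase between Pgk1 and Eno1 in the chain, had 100 or more counts in 8 libraries and at most 1303. The muscle forms Eno3 and Pgam2 reached 10714 and 9189 counts, and both also stand in the skeletal muscle list above. Gapdhs, Pklr and Ldhc, isoenzymes of testis or of liver and red blood cells, had 0 counts in every library.

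The transport and control genes named here from the list of 33 were chosen after their values were seen. The glucose carrier genes Slc2a3 and Slc2a6 had 0 counts in all 11 libraries, and Slc2a1 had over 47 counts in WT day 39 replicate 3 alone, with 1774. The lactate carrier Slc16a3 had 2160 and 2260 counts in KO day 0 replicates 2 and 3, which are 2 of the 3 Aldoa-rich libraries, and at most 1 elsewhere. Pfkfb3, whose product activates phosphofructokinase, had 1394 counts in KO day 0 replicate 1 and 370 and 483 in WT day 39 replicates 2 and 3, and at most 6 elsewhere. Hif1a had 1142 and 2046 counts in day 0 WT and 1743 in WT day 39 replicate 1, and at most 4 in the other 8 libraries. At day 0 its log2 difference of KO from WT was -11.03 ± 5.22 (SE, edgeR adjusted p = 0.381), and it did not pass. Several of these genes thus had over 1000 counts in 1 library and 10 or fewer in another of the same group.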

How the data were processed

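The authors deposited whole-number counts per gene symbol, 1 file for each of 11 libraries made with a Lexogen QuantSeq kit, which reads near the 3′ end of transcripts, per the labels' protocols. Per the submitters' processing notes, Bowtie2 and edgeR were used and the build was hg19, a human build, although the symbols are those of mouse; annotation, strand setting and use of molecular identifiers are not given in the sources used here. Totals are in the report. Groups and replicate numbers came from the titles. The 10 genes, the lists and the tests were chosen with earlier results of these data known.

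Here the counts were filtered (filterByExpr), scaled by TMM and fitted with edgeR 4.0.16 in R 4.3.3 (robust glmQLFit and glmQLFTest, 1 coefficient per group, all 11 libraries). P-values are two-sided and adjusted over all 6987 tested genes by Benjamini-Hochberg, with a threshold of 0.05. The SE was taken as the size of the log2 fold change over the root of the F statistic. CPM used the TMM-scaled sum of tested genes. The floor is 3 counts per library and covers counting error only. In each contrast the members past the threshold are named with their test, or else the 2 with the smallest p. The test of Gpi1 between days in KO was added because its groups did not overlap. The procedure was tested on simulated counts that varied far less between libraries than these data, which checks the code alone. Near-identical 3′ ends were sought with BLAST 2.17.0 in GENCODE M21 transcripts, and start windows came from RefSeq (GRCm38.p6). Alternatives were DESeq2 1.42.0, other scalings and filters, fewer groups, a replicate block and leaving out libraries. Some genes that these rules select are not reported here.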

Additional observations from a re-analysis of the deposited data

How the results depend on the processing

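No glycolysis gene was called by edgeR under any scaling, filter, choice of groups, replicate block or single left-out library that was run. The DESeq2 test called 1, Hk1, in 4 of 6 contrasts, with log2 fold changes of -26.66 (KO against WT, day 0), 28.92 (day 39 against day 0 in KO), 27.37 (interaction) and 15.24 (averaged days), sizes that depend on how a group at 0 is fitted. It called 31.1%, 25.9%, 21.4% and 26.4% of all genes it gave an adjusted p in those contrasts, beside 1 of 9 members. Hk2 over time in WT turned to -1.17 with upper-quartile scaling. Leaving out 1 library gave -12.80 to 0 for Hk1 between strains at day 0, -2.48 to 1.72 for Aldoa over time in WT and -2.07 to 0.030 for Aldoa over averaged days. Upper-quartile scaling moved the median log2 difference of all genes between strains at day 0 from 1.08 to 0 and left 1 of the 9 tested members above 0, not 5. Scaled by library totals, the summed CPM of the 10 genes was 2436 in WT day 39 replicate 1, a move larger than its group's SD. By ratio it moved further, but within the SD of the group, in KO day 39 replicate 3 (5803 to 4289) and WT day 0 replicate 1 (1652 to 2137).

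Counts of all called genes moved widely, and the cause was not tested. By edgeR 1 gene was called between the strains at day 0, 2 at day 39, 1 between days in WT, 11 between days in KO, 0 in the interaction and 21 over averaged days. DESeq2 gave 1399, 467, 1282, 1165, 987 and 1219. Testing all genes gave 0, 0, 0, 0 and, over averaged days, 2. Testing those averaging 10 counts or more gave 0, 0, 0, 5 and, over averaged days, 3. Upper-quartile scaling gave 0 at day 39, 0 between days in KO, 5 in the interaction and 51 over averaged days. Unscaled library sizes gave 0 at day 0, 0 between days in WT, 2 in the interaction and 9 over averaged days, and size factors of DESeq2 in edgeR gave 0 between days in WT. Fitting a contrast's own groups gave 0, 0, 2 and 5 in the first 4 contrasts and is not possible in the last 2. The replicate block gave 0 at day 0, 1 at day 39, 0 between days in WT and 7 over averaged days. Leaving out 1 library gave 0 to 5, 0 to 2, 0 to 1, 5 to 15, 0 to 8 and 1 to 62 genes in that order. Leaving out the 3 libraries labelled KO with over 100 Ptger4 counts, chosen after seeing the data, gave 0, 0, 1, 7, 0 and 4 genes. This leaves 1 KO library at day 0, assumed to vary like the other groups, so the absence of member calls there says little.

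Same-numbered libraries of different groups showed little shared deviation (15 pairs, correlations of -0.02 to 0.07, against -0.07 to 0.04 in 30 other pairs). These values cannot decide whether the numbers pair the samples, because libraries of the same group varied widely. The replicate numbers were also those of the titles, which differ in part from those of the file names.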
